A study of Homo sapiens with 4 samples.

Results

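The heat shock proteins and their DNAJ cochaperones were examined in Daoy cells, an established human medulloblastoma line, in which PELP1, a nuclear receptor coregulator and member of a nucleolar ribosome maturation complex, had been depleted. Members were taken by gene symbol, as rows beginning with HSPA, HSPB, HSPD, HSPE, HSPH, HSP90, DNAJA, DNAJB or DNAJC followed by a number. The endoplasmic reticulum genes HSPA5, HSP90B1, DNAJB9 and DNAJC3, antisense rows and numbered pseudogene rows were left out. This gave 79 of the 23228 gene rows, of which 63 had enough reads to be tested. One group of 2 libraries came from cells stably carrying a lentiviral control shRNA vector, and the other group of 2 from cells stably carrying a lentiviral PELP1 shRNA vector. All were grown in DMEM with serum, and total RNA was sequenced. The labels do not say how many shRNA sequences or clones were used, or whether the duplicates were separate cultures, so p-values reflect the spread among these 4 libraries alone, and that spread may be technical.

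Heat shock proteins are molecular chaperones, which bind unfolded polypeptides and help them fold, assemble or be degraded. HSP70 proteins grip and release clients in an ATP cycle. DNAJ proteins start that cycle through their J domain and bring clients in, HSP110 proteins act as nucleotide exchange factors that reset it, and HSP90 takes over near-native clients such as kinases and steroid receptors. HSP60 with its lid HSP10 folds proteins inside mitochondria, and small heat shock proteins hold aggregating proteins without using ATP. Some family members are made at all times, while others are induced by heat shock factor HSF1 when proteins misfold.

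Libraries held 24052542 to 29221640 counts in genes. PELP1 stood at 168 and 185 CPM (read counts scaled to a common library size with TMM factors) in the control libraries and at 55.6 and 49.7 CPM in the PELP1 shRNA libraries, which gives −1.75 ± 0.05 (SE) as log2 fold change, with a false discovery rate (FDR) of 1.54e-33 in the quasi-likelihood test of edgeR. Of the cerebellar granule lineage markers, ZIC1, ZIC2 and PAX6 had a mean of 16.0 to 23.3 CPM in each group, whereas ATOH1, NEUROD1 and BARHL1 had 0 to 6 counts in any library and EOMES 9 to 27. The summed level of 4 mesenchymal genes was 16149 to 16640 CPM in controls and 18135 to 18311 CPM with the PELP1 shRNA, in which FN1 rose from a mean of 7007 to 9999.7 CPM and VIM fell from 5548 to 3894 CPM. That of 4 epithelial genes was 567 to 582 and 829 to 851 CPM, with CDH1 at 0 to 3 and EPCAM at 3 to 24 counts. That of 4 leukocyte genes was 58.2 to 58.9 and 58.3 to 58.8 CPM, almost all of it CD68, with PTPRC at 5 to 9, CD3E at 0 to 5 and ITGAM at 2 to 10 counts. That of 3 endothelial genes was 1.44 to 2.22 and 3.41 to 3.91 CPM, with PECAM1 and VWF higher and CDH5 lower. The part of these markers in the changes below was not tested, and in bulk RNA fewer cells of a type and less RNA per cell cannot be told apart.

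Chaperone transcripts changed little, and in both directions. Among the 63 tested members, 14 rose and 19 fell at an FDR under 0.05, so that 52.4% were called, against 58.1% of all 14972 genes tested. The share that rose was 22.2%, against 28.6% of all genes, and the share that fell was 30.2%, against 29.5%. The counts by class and list below are to be read beside these shares of all genes. Called members changed by a median of 0.23 on the absolute log2 scale, and called genes overall by 0.39. A single member, DNAJB14, was called with a change of at least 1.5-fold (1.59% of members, against 18.6% of all genes). Tested against a 1.5-fold change with glmTreat, 0 members passed, against 9.63% of all genes. In the test of any change, 36 of the 63 members had an unadjusted p under 0.05, against 9287 of the 14972 genes, and DESeq2 called 26 members and 6355 genes. The values of both groups did not overlap for 51 of the 63 members (81.0%), against 77.7% of all genes.

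**Figure D1:**
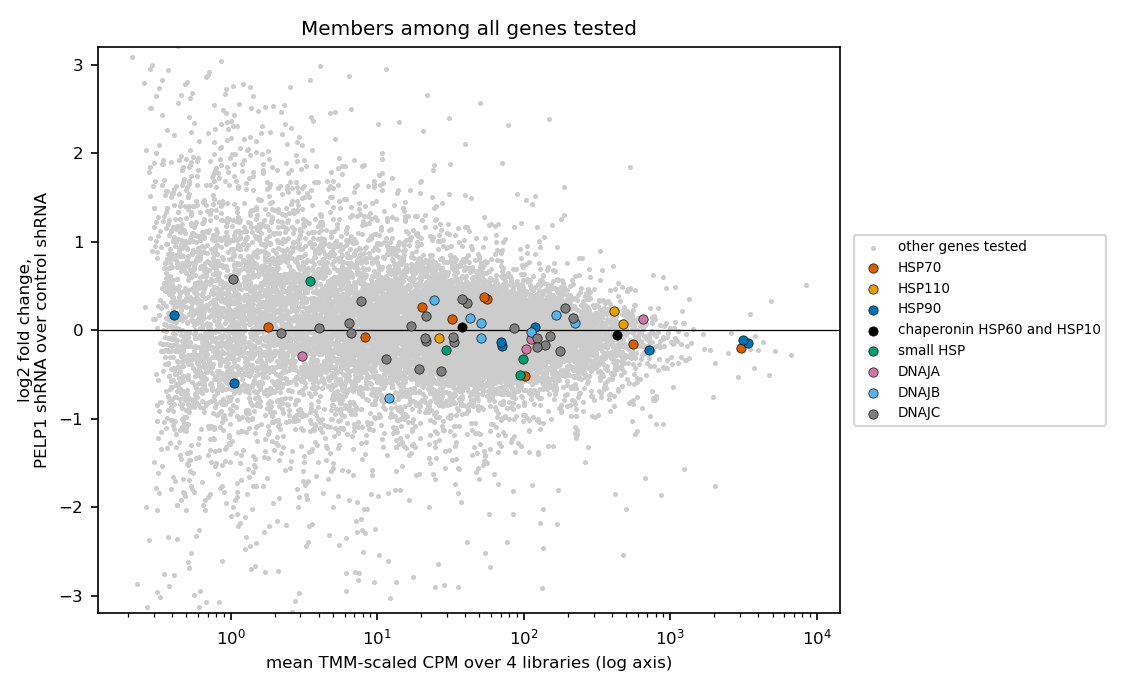
Each point is a gene tested, placed by its mean TMM-scaled CPM over 4 libraries (log axis) and its log2 fold change of PELP1 shRNA over control shRNA, with members coloured by class and other genes in grey. The members lie between −0.77 and 0.58, while 73 other genes changed by more than 3.2 in either direction and are not drawn.

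Abundance matters for reading these numbers, because 23 members had a mean of at least 100 CPM, where small changes pass the test. In that range 15 of the 23 members (65.2%) were called, against 73.0% of 2544 genes. Called with a change of at least 1.5-fold were 0 of these members and 207 of these genes (8.14%). The median absolute log2 fold change was 0.14 for members and 0.18 for all. Falls outnumbered rises in both: 43.5% of these members fell and 21.7% rose, against 46.1% and 26.8% of all genes in the range. The median log2 fold change was −0.09 for members and −0.07 for all. Members together held 1.63% and 1.60% of all gene counts in the control libraries and 1.58% and 1.62% with the PELP1 shRNA, so their raw share of the counts overlapped between the groups. After TMM scaling their sum did not overlap, at 16804 and 16536 CPM in controls and 15312 and 15745 CPM with the PELP1 shRNA. The sum over all genes tested is fixed by the TMM factors, so it is no measure of total RNA. It was 1028752 and 1034586 CPM in controls and 968062 and 970553 CPM with the PELP1 shRNA. The separation of the member sum appeared only with these factors and cannot be read apart from them. The balance of calls depended on scaling. With upper-quartile factors 19 members rose and 17 fell, and with library size alone 20 rose and 12 fell, as the median of all genes then moved up by 0.05 and 0.09. Over all genes the same scalings gave 5071 higher and 3694 lower, and 5681 higher and 3305 lower, against 4276 and 4424 with TMM. No called member changed direction under any alternative.

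**Figure D2:**
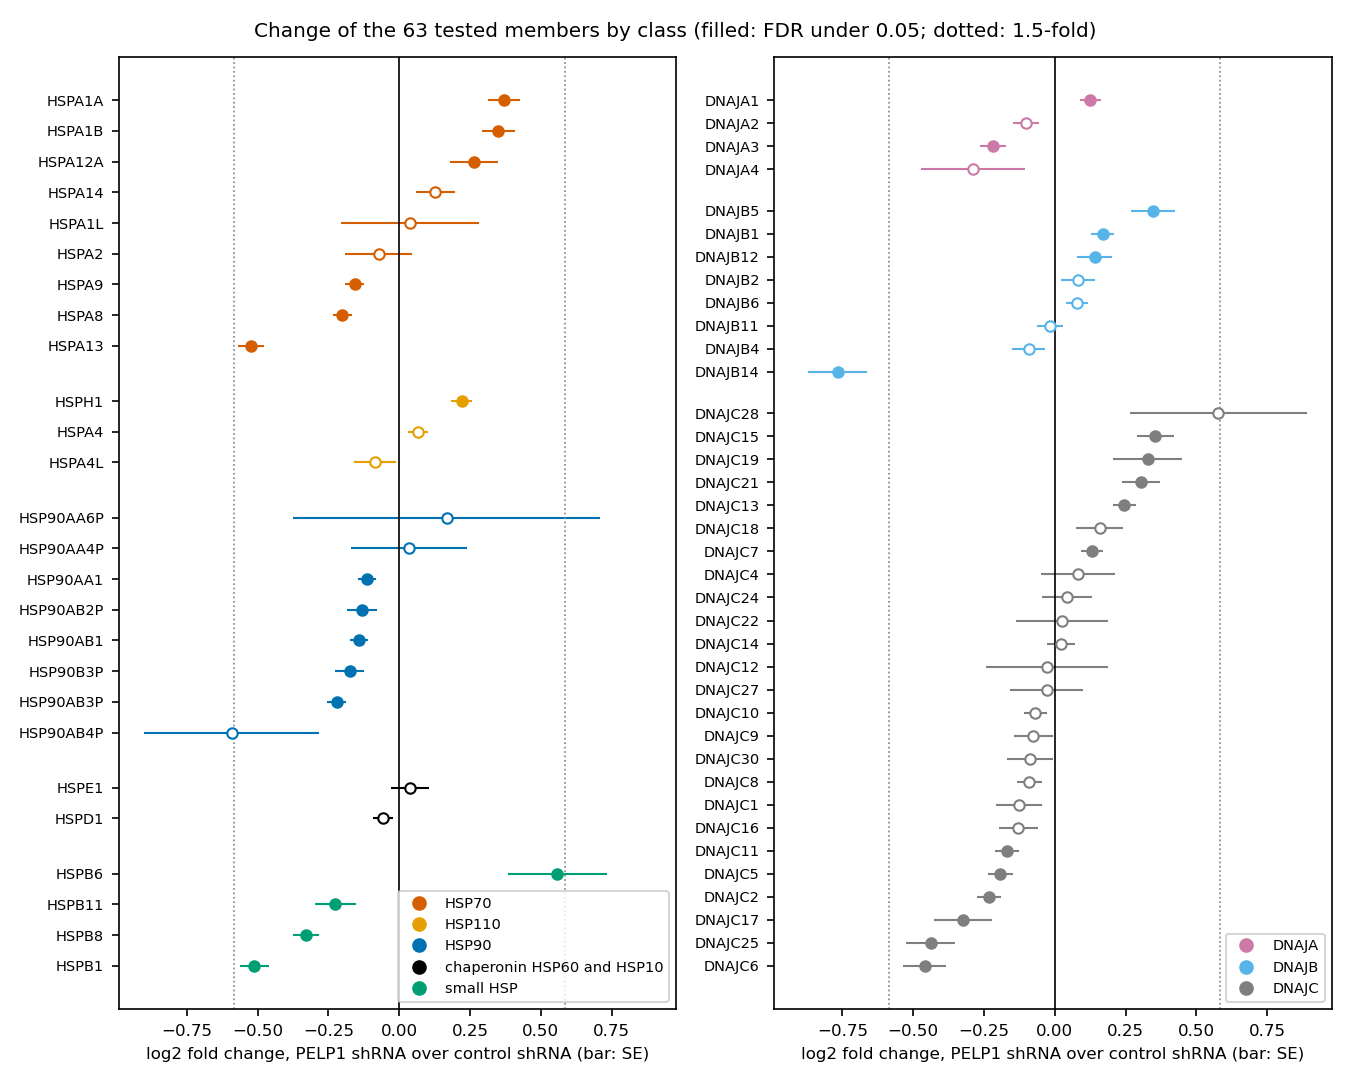
Log2 fold change of PELP1 shRNA over control shRNA (point) and its SE (bar) for each of the 63 tested members, by class. Filled points passed the FDR threshold of 0.05 and dotted lines mark a 1.5-fold change, which DNAJB14 alone among the called members exceeds.

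Heat shock factors bind repeats of a short unit in alternating orientation. Because some of these genes are textbook targets of HSF1, promoter windows of 61 matched members, some with several windows, were searched for 3 perfect units. The RefSeq windows (GRCh38.p14) ran from 250 bases before to 50 after the start. The motif was GAANNTTCNNGAA or its reverse complement TTCNNGAANNTTC, whose matches can overlap each other. It occurred in 7 members (11.5%), against 172 of 35116 windows of all genes (0.490%), where each window of a gene is counted. These members were DNAJA1, DNAJB6, HSP90AA1, HSP90AB1, HSPA6, HSPA8 and HSPD1. By the test on transcripts, 1 of the 14 members that rose had it, 3 of 15 that fell, 2 of 23 that did not pass and 1 of 9 not tested. The windows of HSPA1A, HSPA1B, HSPH1 and DNAJB1 did not hold these letters, and imperfect units were not searched for. The stretches before the start site of 5 abundant members are shown, since the most counted members are among them. Each is given 5′ to 3′ on the gene's strand with the matches in capitals.
HSP90AA1, chr14:102087100-102087152, minus strand: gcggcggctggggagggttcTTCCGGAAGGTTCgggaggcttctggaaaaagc
HSP90AB1, chr6:44247758-44247863, plus strand: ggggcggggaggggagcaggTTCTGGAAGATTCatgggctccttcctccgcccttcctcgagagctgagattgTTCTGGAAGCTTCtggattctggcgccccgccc
HSPA8, chr11:123062159-123062386, minus strand: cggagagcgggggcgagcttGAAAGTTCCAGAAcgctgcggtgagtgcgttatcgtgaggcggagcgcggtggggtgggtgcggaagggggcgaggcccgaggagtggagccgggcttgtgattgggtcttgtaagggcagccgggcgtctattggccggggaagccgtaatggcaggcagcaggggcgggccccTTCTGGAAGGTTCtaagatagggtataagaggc
HSPD1, chr2:197500048-197500090, minus strand: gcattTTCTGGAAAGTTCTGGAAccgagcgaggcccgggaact
DNAJB6, chr7:157336853-157336905, plus strand: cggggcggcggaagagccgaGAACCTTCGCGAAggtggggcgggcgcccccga
In HSP90AA1 the match began 88 bases before the start and in DNAJB6 131 bases before it, while HSP90AB1, HSPA8 and HSPD1 each held 2 matches, which overlap in HSPD1. The match in DNAJA1 lay 3 bases past the start. A match describes the letters of the window, and binding was not measured.

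In the HSP70 family, the inducible pair of cytosolic genes rose and the constitutive cytosolic gene fell. HSPA1A and HSPA1B, neighbouring intronless genes for the inducible HSP70, rose by 1.29-fold and 1.27-fold. HSPA8, the constitutive cytosolic HSP70 that also uncoats clathrin vesicles, fell to 87.0% of control. In the class as a whole, 9 of 12 members were tested, with 3 higher, 3 lower and 3 not past the threshold. The share was 33.3% in each direction, against 28.6% higher and 29.5% lower over all genes. The median of the class was 0.04 on the log2 scale, against 0.00222 over all genes. HSPA1A (hg19, chr6:31783320-31785723) stood at 45.9 and 48.2 CPM in the control libraries and at 61.6 and 60.05 CPM with the PELP1 shRNA (log2 fold change 0.37 ± 0.06, SE; edgeR FDR = 9.47e-08). HSPA1B (chr6:31795515-31798031) stood at 47.1 and 51.9 CPM and at 60.5 and 65.9 CPM (0.35 ± 0.06, SE, FDR = 5.25e-07). For both, the 2 PELP1 shRNA libraries lay above the 2 control libraries. These genes are near copies: 75.1% of the 50-base windows of the HSPA1A transcript and 71.6% of those of HSPA1B occur exactly elsewhere in the genome. Reads from such windows align to more than 1 place and are not counted, so the levels of both are partial and neither level can be ranked against other genes. HSPA1B also shares 920 exonic bases with another gene on its strand.

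HSPA8 (chr11:122928197-122933938) stood at 3285 and 3223 CPM in the control libraries and at 2778 and 2886 CPM with the PELP1 shRNA. The log2 fold change was −0.20 ± 0.03 (SE, edgeR FDR = 3.81e-07), and both PELP1 shRNA libraries lay below both controls. An antisense gene overlaps 555 exonic bases of HSPA8. HSPA9, the mitochondrial HSP70 that pulls precursor proteins through the inner membrane, fell from 593 and 585 CPM to 525 and 531 CPM (−0.16 ± 0.03, SE, FDR = 7.35e-05). That call was lost with library size alone (log2 fold change −0.07, adjusted p = 0.0804). The third that fell, named after its values were seen, was HSPA13, a microsome-associated HSP70. It had the largest change of the class, from 122 and 119.9 CPM to 84.8 and 83.3 CPM (−0.52 ± 0.05, SE, FDR = 2.05e-15). HSPA12A, a divergent member, rose from 18.6 and 18.3 CPM to 23.5 and 20.7 CPM (0.26 ± 0.08, SE, FDR = 0.00596), a call lost without PELP1 shRNA replicate 1 and with DESeq2, and antisense genes overlap 712 of its exonic bases. Among those not tested, the strictly inducible HSPA6 was close to the limit of detection. It had 20 counts over both controls and 19 over both PELP1 shRNA libraries. Exact copies elsewhere in the genome cover 56.1% of its windows, so this count is partial. The ratio after scaling was 0.808 (95% counting interval 0.408 to 1.59). HSPA12B had 0 counts over both controls and 12 over both PELP1 shRNA libraries. With the controls set to a floor of 3 counts over the group, the ratio was 3.40. The 95% counting interval of its ratio had a lower limit of 2.36 and no upper limit.

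Within a library the ratio of 2 genes does not depend on scaling, so reads of 7 heat-inducible members were set against those of HSPA8, a comparison chosen after the values were seen. HSPA1A and HSPA1B are partly counted, and 23.3%, 24.4% and 16.4% of the HSPA8, HSP90AA1 and HSPB1 windows occur exactly elsewhere. Since HSPA8 is in every ratio, only the change of a ratio can be read, not its size. Per 100 HSPA8 reads, HSPA1A had 1.40 and 1.497 reads in the control libraries and 2.22 and 2.08 with the PELP1 shRNA, a rise of the mean by 1.49-fold. HSPA1B had 1.43 and 1.61 reads against 2.18 and 2.28 (1.47-fold). HSPH1 had 11.8 and 11.6 reads against 15.6 and 15.8 (1.34-fold). For DNAJB1 the change was 1.29-fold and for DNAJA1 1.25-fold. HSP90AA1 had 101.7 and 100.3 reads against 107.5 and 107.1 (1.06-fold). HSPB1 went the other way, from 3.41 and 3.39 reads to 2.98 and 2.50, to 0.806 of the control ratio. The first 5 genes were called higher and HSPA8 lower in the tests above, so the separation of those 5 ratios follows from the calls and adds no support to them. The ratio of HSP90AA1, the inducible cytosolic HSP90, to the constitutive HSP90AB1 overlapped between the groups, with 94.0 and 91.0 reads per 100 in controls and 93.0 and 95.7 with the PELP1 shRNA. So did the ratio of HSPE1 to HSPD1.

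**Figure D3:**
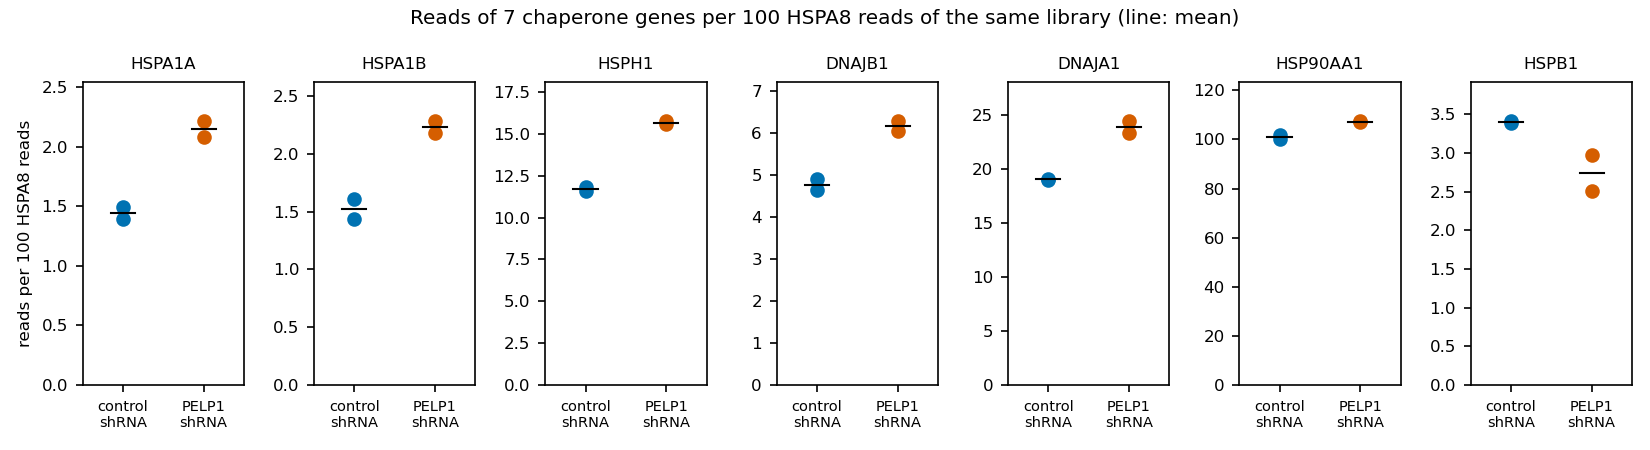
Reads of HSPA1A, HSPA1B, HSPH1, DNAJB1, DNAJA1, HSP90AA1 and HSPB1 per 100 HSPA8 reads of the same library, with 2 control shRNA libraries (blue) and 2 PELP1 shRNA libraries (orange) as points and group means as lines. Both PELP1 shRNA libraries lie above both controls in every panel other than HSPB1, where they lie below, for example at 2.22 and 2.08 against 1.40 and 1.497 for HSPA1A.

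HSP110 proteins release ADP from HSP70 and can break up aggregates together with it. HSPH1, the heat-inducible one, rose from 388 and 374 CPM in the controls to 433 and 455 CPM with the PELP1 shRNA (log2 fold change 0.22 ± 0.04, SE, edgeR FDR = 3.43e-07). Both PELP1 shRNA libraries lay above both controls. HSPA4 stood at 474 and 462 CPM and at 482 and 498 CPM (0.07 ± 0.04, SE, FDR = 0.0915). It passed as higher under upper-quartile scaling (0.12, adjusted p = 0.00229), under scaling by library size (0.16, adjusted p = 4.62e-05) and with the filter at 5 CPM (adjusted p = 0.0309). HSPA4L stood at −0.09 ± 0.07 (SE, FDR = 0.327). The class thus had 1 of 3 members higher, 0 lower and 2 not past the threshold, and 0 lower at an unadjusted p under 0.05.

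HSP90 transcripts were slightly lower. HSP90AB1, the constitutive form (chr6:44213903-44221625), stood at 3555 and 3553 CPM in the control libraries and at 3208 and 3229.8 CPM with the PELP1 shRNA. This is a fall to 90.6% of control (log2 fold change −0.14 ± 0.03, SE, edgeR FDR = 0.000135). HSP90AA1 (chr14:102547079-102606036), the inducible form, stood at 3341 and 3233 CPM and at 2985 and 3091 CPM (−0.11 ± 0.03, SE, FDR = 0.00245). Groups did not overlap for either gene. With library size alone neither was called (adjusted p = 0.138 for HSP90AB1 and 0.528 for HSP90AA1). For HSP90AA1 the call was also lost under upper-quartile scaling (adjusted p = 0.104) and on leaving out PELP1 shRNA replicate 1 (adjusted p = 0.103). In the controls, counted reads per kilobase of the canonical transcript were highest in HSPA8 and HSP90AB1. These stood at 1451 and 1423 CPM per kb and at 1391 and 1390.5, followed by HSP90AA1 (1035 and 1002). Exact copies elsewhere cover 23.3% of the windows of HSPA8, 22.0% of HSP90AB1 and 24.4% of HSP90AA1. These levels are therefore partial, and the order holds for counted reads only. With the PELP1 shRNA, HSPA8 (1227 and 1275) and HSP90AB1 (1256 and 1264) overlapped, so their order was not resolved.

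The other 6 HSP90 rows are processed pseudogenes in GENCODE, and HSP90AB3P was the fourth most counted member. It stood at 776 and 777 CPM in the controls and 680 and 653 CPM with the PELP1 shRNA (log2 fold change −0.22 ± 0.03, SE, edgeR FDR = 1.04e-07), the same direction as its parent HSP90AB1. Whether its reads came from the pseudogene or from transcripts of the parent was not tested. Of the transcript windows of HSP90AB1, 22.0% occur exactly elsewhere, as do 24.4% of those of HSP90AA1, so the parent counts are partial as well. HSP90B3P and HSP90AB2P were lower too, at −0.17 and −0.13. Neither call held with library size alone, the first was also lost without PELP1 shRNA replicate 1, and the second was lost in 10 of 12 alternatives. HSP90AA4P had 125 and 113 CPM in controls against 105 and 139 CPM (FDR = 0.908). Its 2 PELP1 shRNA libraries lay on either side of the controls, and it was called higher without PELP1 shRNA replicate 1 (0.23, adjusted p = 0.00172) and lower without replicate 2 (−0.18, adjusted p = 0.0138). In the class, 5 of 8 fell (62.5%, against 29.5% of all genes and 46.1% of those at 100 CPM or more) and 0 rose. The same held in edgeR at an unadjusted p under 0.05, and the median was −0.14. Of the 5 falls, 3 were pseudogene rows, and the source of their reads was not tested. Without readthrough and pseudogene symbols and HSPB11, 14 of 56 members rose and 15 fell.

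The mitochondrial chaperonin pair did not pass the test. HSPD1, the HSP60 subunit, stood at 442 and 437 CPM in the controls and at 412 and 433 CPM with the PELP1 shRNA (log2 fold change −0.06 ± 0.04, SE, edgeR FDR = 0.158). HSPE1, its HSP10 lid, stood at 35.9 and 39.2 CPM and at 40.6 and 36.5 CPM (0.04 ± 0.07, SE, FDR = 0.648), and its groups overlapped. The 2 genes lie head to head on chromosome 2, HSPD1 on the minus and HSPE1 on the plus strand, and share 135 exonic bases. HSPE1 also shares 192 exonic bases with a readthrough gene, and the readthrough row of the files had 0 counts. Exact copies elsewhere cover 41.5% of the HSPD1 windows and 37.6% of those of HSPE1, so both counts are partial.

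Both abundant small heat shock proteins fell. HSPB1 (HSP27; chr7:75931990-75933612), which guards actin filaments and holds unfolded proteins, stood at 112 and 109 CPM in the control libraries and at 82.7 and 72.2 CPM with the PELP1 shRNA. It fell to 70.1% of control (log2 fold change −0.51 ± 0.05, SE, edgeR FDR = 4.87e-13). HSPB8 (chr12:119609360-119662660), which works with BAG3 in the removal of aggregates by autophagy, fell from 108 and 113 CPM to 87.7 and 88.7 CPM (−0.33 ± 0.05, SE, FDR = 1.13e-08). In both genes each PELP1 shRNA library lay below each control, and both calls held in all alternatives other than an assumed biological variation of 20%, or 10% for HSPB8. The other 2 tested rows, named after their values were seen, went in opposite directions. HSPB6 (HSP20), at 2.995 and 2.68 against 4.11 and 4.25 CPM, rose by 0.56 ± 0.18 (SE, FDR = 0.00495), and that call was lost with DESeq2 and without control replicate 2. HSPB6 shares 660 exonic bases with an antisense gene. HSPB11, an intraflagellar transport protein in spite of its symbol, fell by 0.23 on the log2 scale, a call lost with library size alone, with DESeq2 and without control replicate 1 or PELP1 shRNA replicate 1. The muscle-associated HSPB2, HSPB3 and HSPB7 and the testis gene HSPB9 had 0 to 2 counts each in a group.

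**Figure D4:**
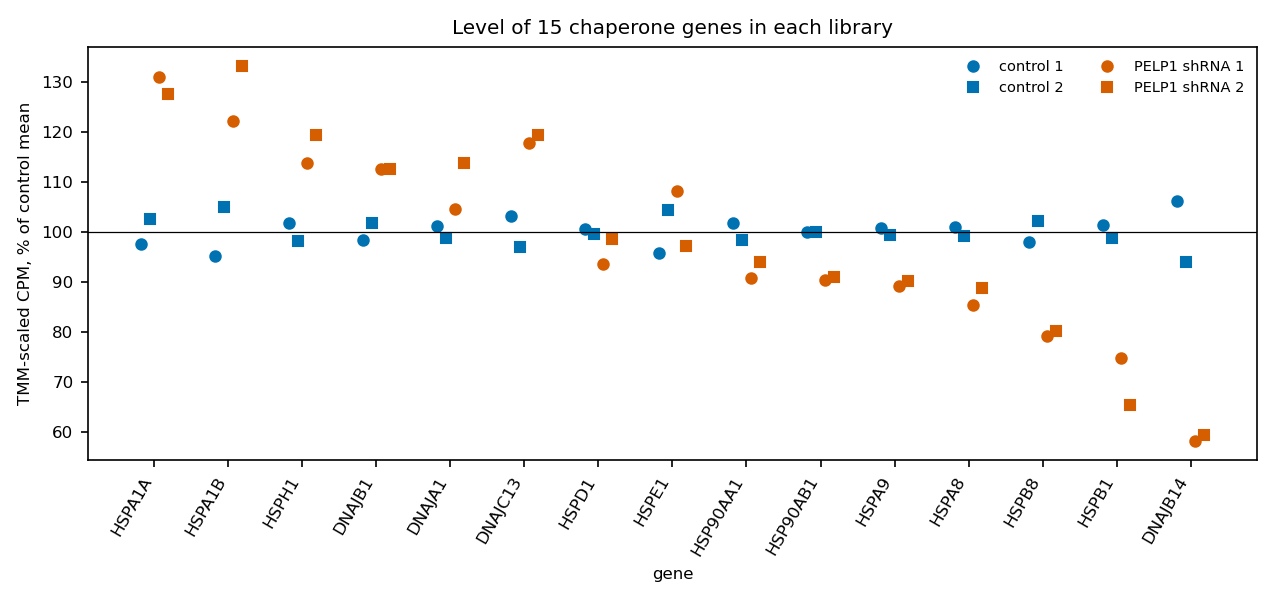
TMM-scaled CPM of 15 chaperone genes in each of the 4 libraries, as a percentage of the control mean (control libraries blue, PELP1 shRNA libraries orange, replicate 1 as circles and replicate 2 as squares). HSPA1A, HSPA1B and HSPH1 lie above their controls, HSPE1 overlaps them, and HSPB8, HSPB1 and DNAJB14 lie below.

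DNAJA and DNAJB proteins are the general cochaperones that deliver unfolded clients to HSP70. DNAJB1 (HSP40), the heat-inducible partner of HSP70, rose from 153 and 158 CPM to 175 CPM in both PELP1 shRNA libraries (log2 fold change 0.17 ± 0.04, SE, edgeR FDR = 0.000323). Antisense genes overlap 561 of its exonic bases. DNAJA1 rose from 627 and 612 CPM to 648 and 705 CPM (0.13 ± 0.04, SE, FDR = 0.00213), and this rested on PELP1 shRNA replicate 2, without which the log2 fold change was 0.06 (adjusted p = 0.258). DNAJA2 stood at 121 and 113 CPM and at 106 and 112 CPM (−0.10 ± 0.05, SE, FDR = 0.0520). It was called lower without control replicate 2 (adjusted p = 0.0112) and without PELP1 shRNA replicate 2 (adjusted p = 0.0455). DNAJB6, which suppresses polyglutamine aggregation, stood at 216 and 222 CPM and at 229 and 232 CPM (0.08 ± 0.04, SE, FDR = 0.0787). Upper-quartile scaling (adjusted p = 0.00276), the filter at 5 CPM (adjusted p = 0.0292) and scaling by library size (adjusted p = 9.56e-05) made it a higher call.

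DNAJB14, a J protein anchored in the reticulum membrane, changed most of all called members. It stood at 16.0 and 14.2 CPM in the controls and at 8.78 and 8.96 CPM with the PELP1 shRNA, a fall to 58.8% (log2 fold change −0.77 ± 0.10, SE, edgeR FDR = 2.80e-09; chr4:100817405-100867775). The groups were well separated, but the change did not pass the test against 1.5-fold (glmTreat FDR = 0.105). DNAJB5, named after its values were seen as is DNAJB12, rose most in the class, from 22.2 and 21.1 CPM to 28.3 and 26.7 CPM (0.35 ± 0.08, SE, FDR = 0.000109). DNAJB12, the closest relative of DNAJB14, was higher (0.14 ± 0.06, SE, FDR = 0.0489), a call lost in 7 of 12 alternatives. Of 8 tested DNAJB genes, 3 rose, 1 fell and 4 did not pass (median 0.08), and of 4 DNAJA genes 1 rose, 1 fell and 2 did not pass (median −0.16). The one that fell was DNAJA3, the mitochondrial J protein, by 0.22 on the log2 scale.

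DNAJC proteins share only the J domain and serve many special tasks. Of 28 rows, 25 were tested, with 5 higher (20%, against 28.6% of all genes), 6 lower (24%, against 29.5%) and 14 not past the threshold. The median was −0.03 in a range from −0.46 to 0.58. DNAJC13 (RME-8), which works in endosomal sorting, rose from 180.3 and 169 CPM to 206 and 209 CPM (0.25 ± 0.04, SE, edgeR FDR = 3.97e-07), with no overlap between the groups. DNAJC7, which binds both HSP70 and HSP90, rose from 211 and 202 CPM to 222 and 231 CPM (0.13 ± 0.04, SE, FDR = 0.00314). That call was lost when control replicate 2 was left out (adjusted p = 0.0581) and when PELP1 shRNA replicate 2 was (adjusted p = 0.0991), and DNAJC7 shares 917 exonic bases with antisense genes. The other members called were named after their values were seen. Higher were DNAJC15 (0.35) and DNAJC19 (0.33), both J proteins of the mitochondrial inner membrane, and DNAJC21 (0.30), a factor of large ribosomal subunit maturation. The DNAJC19 call was lost with DESeq2 and without control replicate 1 or PELP1 shRNA replicate 1. Lower were DNAJC6 (−0.46; auxilin, which uncoats clathrin vesicles), DNAJC25 (−0.44), DNAJC17 (−0.32), DNAJC2 (−0.23; the ribosome-associated J protein), DNAJC5 (−0.19; cysteine string protein) and DNAJC11 (−0.17). Of these, DNAJC2, DNAJC11 and DNAJC17 overlap antisense genes over 1412, 1419 and 1569 exonic bases. DNAJC5 and DNAJC25 overlap genes on their own strand over 469 and 358 bases. The DNAJC11 call was lost with library size alone and the DNAJC17 call with DESeq2. Among rows not tested, DNAJB13 had 0 and 2 counts in the controls and 9 and 2 with the PELP1 shRNA, which overlap. The ratio of the summed counts, 2 and 11, was 4.68 after scaling (95% counting interval 1.02 to 43.4). It rested on PELP1 shRNA replicate 1, and an antisense gene overlaps 798 exonic bases of DNAJB13. Over the whole list 6 rows were at 0 in every library and 10 others had counts but fell under the filter.

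Partners outside the symbol rule moved in both directions as well. HSF1, the master factor of the heat shock response, fell from a mean of 94.0 to 78.7 CPM (log2 fold change −0.26 ± 0.05, SE, edgeR FDR = 9.87e-06), while HSF2 rose from 23.8 to 30.8 CPM (0.37 ± 0.07, SE, FDR = 1.58e-05). HSBP1, a small binding protein of HSF1, rose by 0.27. Of the 27 HSP90 and HSP70 cochaperones, all tested, 10 were higher, 7 lower and 10 not past the threshold (median −0.01). SGTA, which hands tail-anchored and mislocalised membrane proteins on with BAG6, fell the furthest, from a mean of 181 ± 7.92 to 68.9 ± 0.294 CPM (SD, n = 2; −1.39 ± 0.05, SE, FDR = 1.94e-36). NUDCD2 rose by 0.38. The HSP70 to HSP90 adaptor STIP1 (−0.01, FDR = 0.794) and the exchange factor BAG3 (−0.08, FDR = 0.152), itself an HSF1 target, did not pass. STIP1 was called higher with library size alone (0.0783, adjusted p = 0.0441).

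Of the 14 cytosolic chaperonin (CCT) and prefoldin genes, 1 rose, 5 fell and 8 did not pass (median −0.04). Those shares were 7.14% higher and 35.7% lower, against 28.6% and 29.5% of all genes. CCT8 fell from a mean of 408 to 284 CPM (−0.52 ± 0.04, SE, edgeR FDR = 1.77e-19) and the prefoldin subunit PFDN6 rose from 78.9 to 122 CPM (0.63 ± 0.05, SE, FDR = 2.52e-18). Of 8 mitochondrial partners tested, 1 rose and 2 fell: the protease LONP1 rose by 0.52, the mitochondrial HSP90 TRAP1 fell by 0.34 and the HSPA9 exchange factor GRPEL1 fell by 0.20. Among J proteins and small heat shock proteins with other symbols, GAK, a kinase with a J domain that uncoats clathrin vesicles, rose by 0.26 on the log2 scale. CRYAB, the αB-crystallin, stood at a mean of 1.41 and 0.98 CPM (FDR = 0.131). Of the 4 reticulum chaperones left out of the rule, 0 rose, 2 fell and 2 did not pass, and 0 rose at an unadjusted p under 0.05. HSPA5 stood at −0.68 and HSP90B1 at −0.16, and HSP90B1 was not called with library size alone (adjusted p = 0.0596). Of 6 other genes, listed for heat shock factor sites that were not checked here, 2 rose and 4 fell. The rises were in UBB (0.17) and HSPBAP1 (0.51). The largest changes were in HMOX1, the haem-degrading enzyme, which fell to 50.8% of control, and MT2A, a metal-binding metallothionein, which fell to 68.0%.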

How the data were processed

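Per the labels, total RNA of 2 control shRNA and 2 PELP1 shRNA samples was made into TruSeq libraries and sequenced from one end over 50 bp. TopHat2 2.0.8b, HTSeq and the build hg19 are named in the submitters' processing notes. Which annotation and strand option HTSeq ran with is not given in the sources used here, so reads of overlapping antisense genes cannot be told apart. The values deposited by the authors are whole-number read counts for each symbol, not normalised. In each file 5 rows named no gene and were left out, among them alignments that were not unique (29.4% to 30.8% of the file total).

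Tests used the edgeR 4.0.16 quasi-likelihood F test in R 4.3.3, two-sided, with TMM scaling, filterByExpr, a model of shRNA group only, and Benjamini-Hochberg adjustment over all genes. Fold changes are PELP1 shRNA over control, and the SE was taken from the fold change and its F value. The method was tested on simulated data in which most genes did not change, so the choice of scaling was not tested there. Both replicate pairs differed by more than counting noise (chi-square per degree of freedom 2.47 and 2.37, against 56.1 to 62.0 between groups). Alternatives were DESeq2 1.42.0, other scalings, filters, a replicate block, each library left out, and assumed biological variation of 10% and 20%. Counting intervals (exact binomial, 95%) cover counting error only.

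Members named in any case were HSPA1A, HSPA1B, HSPA8, HSPA9, HSPH1, HSP90AA1, HSP90AB1, HSPB1, HSPD1, HSPE1, DNAJA1, DNAJB1 and DNAJB6. Added were the 2 most abundant of each class and those called with at least 1.5-fold change, no overlap between groups and at least 5 CPM. Of the other lists, HSF1, HSF2, BAG3, STIP1, CRYAB and the 2 largest called changes at 5 CPM or more were named, and other names were chosen after their values were seen. One gene that this rule names is not reported here. Members and lists were chosen with earlier results of these data known. Positions, overlaps and transcript lengths came from the GENCODE annotation on GRCh37, which matched 77 of 79 symbols. Windows of 50 bases along the canonical transcript were compared exactly with that genome. Windows reaching under 8 bases past an exon junction were left out.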

Additional observations from a re-analysis of the deposited data

How the results depend on the processing

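Calls rested on a small spread between libraries (biological coefficient of variation 2.99%). With an assumed variation of 10%, 7 members were called (2 higher, 5 lower), against 4363 of all genes (2187 higher, 2176 lower). With 20%, 0 members were called (0 higher, 0 lower), against 1325 of all genes (685 higher, 640 lower). Against a 1.5-fold change 0 members passed in either direction. Library size alone called 12 members lower in place of 19. Of 14 higher and 19 lower calls, 8 and 11 held in all 10 alternatives with an estimated variation, and 2 and 5 at 10%. STIP1, not called by edgeR with TMM (−0.01, FDR = 0.794), was called higher with library size alone (0.0783, adjusted p = 0.0441). With one library left out, 28 to 32 members were called (11 to 13 higher, 15 to 21 lower) and 7420 to 7757 genes in all (3612 to 3726 higher, 3804 to 4031 lower). The replicate block called 31 members (13 higher, 18 lower) and 8161 genes. Same-numbered libraries did not deviate together across genes (r = −0.02, low-count genes included), so no shared effect of the number was seen. Whether the numbers pair the samples is not given in the labels. Members under about 1 CPM were limited by depth.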
